A study of Homo sapiens with 4 samples.

Results

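ATF4 and 9 genes that it is known to act on or with, ATF3, DDIT3, ASNS, TRIB3, CHAC1, PSAT1, PPP1R15A, SESN2 and CEBPG, were followed through a table of counts per transcript. The members are all listed transcripts whose identifiers map to these 10 gene symbols, 51 of 227368 transcripts in the table, and none was chosen by its count. RNA was sequenced from H1299, an established line of human non-small-cell lung carcinoma, in cells treated for 48 h with 5 μM HgCl2 (mercury chloride) and in control cells given EtOH, the solvent. The labels name 2 replicates a group, each with its own column of values. The treatment text of the labels gives 5 μM for all samples, and the study's methods, which give the control cells solvent alone, were followed here. All libraries are of poly-A RNA from 1 cell line, with no time point other than 48 h.

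In the integrated stress response, several kinases that sense different stresses phosphorylate the initiation factor eIF2, which lowers translation of most mRNAs while raising that of ATF4. ATF4 is a bZIP transcription factor that binds DNA with partners such as CEBPG and switches on genes of amino acid supply, further transcription factors such as ATF3 and DDIT3 (CHOP), and feedback regulators such as PPP1R15A (GADD34), which brings a phosphatase to eIF2. Much of the control of ATF4 itself lies in translation, which counts of RNA do not measure.

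The most counted ASNS transcript stood at 102 and 94 counts with EtOH and at 272 and 288 with HgCl2, while the ATF4 transcript with the most counts stood at 18 and 16 against 2 and 0. The ATF3 transcripts with a count were also higher with HgCl2, and the counted CEBPG transcript was lower. The 2 PPP1R15A transcripts went in opposite directions. The main transcripts of PSAT1, SESN2, DDIT3 and TRIB3 differed less than 2-fold.

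The variance of the difference between the EtOH columns was 0.505 times that of independent counting (95% interval 0.492 to 0.517, 12382 transcripts), and the HgCl2 pair gave 0.516 times (0.503 to 0.530, 10611 transcripts). The study describes its replicates as biologically independent. Because the columns of a group differed by less than sampling noise, each group was nevertheless counted as 1 sample. Each comparison therefore sets 1 sample against 1 sample, has no replicate check and carries no p-value. Total counts ran from 4720978 to 5053120 a column, with the HgCl2 columns the lower, and 33148 and 33106 transcripts had a count in EtOH against 25432 and 25531 in HgCl2. The part of this difference in the calls at low counts was not tested. The 4 genes looked up as marks of H1299 cells (KRT8, KRT18, VIM and HMGA2) all had counts. Most lay on HMGA2 ENST00000403681, with 33638 and 34029 in EtOH and 91615 and 91326 in HgCl2. No KRT8 or KRT18 transcript passed 47 counts in a column. Of 118 transcripts of 11 genes of blood, endothelium, fibroblasts, liver and normal lung 3 had a count, with sums of 19 and 22 in EtOH and 4 and 6 in HgCl2. The fibroblast gene COL1A1 held 13 and 18 of these in EtOH, above any KRT18 transcript in those columns.

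For the members, a count may stand for a stretch of a gene and not for the whole gene. Of the 51 member transcripts 30 have bases that no other listed transcript covers, called own bases here, and all 19 transcripts with a count are among the 26 that have at least 22 own bases. Member transcripts without own bases, 21 in number, were at 0 in every column. This did not hold across the whole table, where 346 of the transcripts that averaged at least 10 counts have no own bases. The stretch that a count came from is therefore not known for certain. The canonical transcripts of ASNS, ATF3, DDIT3 and CEBPG, each of which has at most 11 own bases, were at 0 in all 4 columns, which is not a measure of those mRNAs. The ASNS, ATF3 and PPP1R15A transcripts that carried the higher counts have own bases in introns of the canonical transcript. The ends of introns of ASNS and ATF3 are shown for transcripts that run across them, 5′ to 3′ in the direction of the gene on GRCh38, with capitals for the bases of the canonical exon and lower case for those of the intron.
ASNS ENST00000495255, 5′ end of intron 4, chr7:97864169-97864288, minus strand: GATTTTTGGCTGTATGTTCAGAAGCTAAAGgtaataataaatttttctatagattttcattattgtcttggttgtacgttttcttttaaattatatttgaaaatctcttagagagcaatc
ASNS ENST00000462436, 5′ end of intron 9, chr7:97855263-97855382, minus strand: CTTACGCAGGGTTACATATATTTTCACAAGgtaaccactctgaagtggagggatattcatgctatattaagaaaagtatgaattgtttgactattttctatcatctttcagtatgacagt
ASNS ENST00000487714, 3′ end of intron 9, chr7:97854651-97854770, minus strand: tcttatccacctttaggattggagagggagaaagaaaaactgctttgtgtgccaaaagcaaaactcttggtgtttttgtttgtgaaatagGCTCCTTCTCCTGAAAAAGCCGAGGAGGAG
ATF3 ENST00000465155, 5′ end of intron 3, chr1:212618205-212618324, plus strand: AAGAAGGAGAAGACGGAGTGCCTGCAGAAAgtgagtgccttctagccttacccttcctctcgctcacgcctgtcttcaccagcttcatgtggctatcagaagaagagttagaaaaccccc

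Fold changes are ratios of TMM-scaled mean counts, HgCl2 over EtOH, with exact 95% Clopper-Pearson intervals from the mean counts. The libraries carry no molecular identifiers, so the intervals cover counting error only. A transcript was called higher or lower where the absolute log2 fold change was at least 1 and the interval left out 0. Calls were made for 11891 transcripts that averaged at least 10 counts over the 4 columns. Of the members, 13 transcripts of 8 genes reached that mean, 6 transcripts had fewer counts and 32 had 0. Of the 13, 6 were higher, 2 lower and 5 neither. Among all 11891 transcripts 20.7% were called higher and 17.6% lower. The median log2 fold change was 0.76 over the 13 and 0.12 over all 11891. A transcript at low counts in one group enters these 13 through the other group alone, so count and median describe the transcripts that were measured and not the 10 genes.

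**Figure D1:**
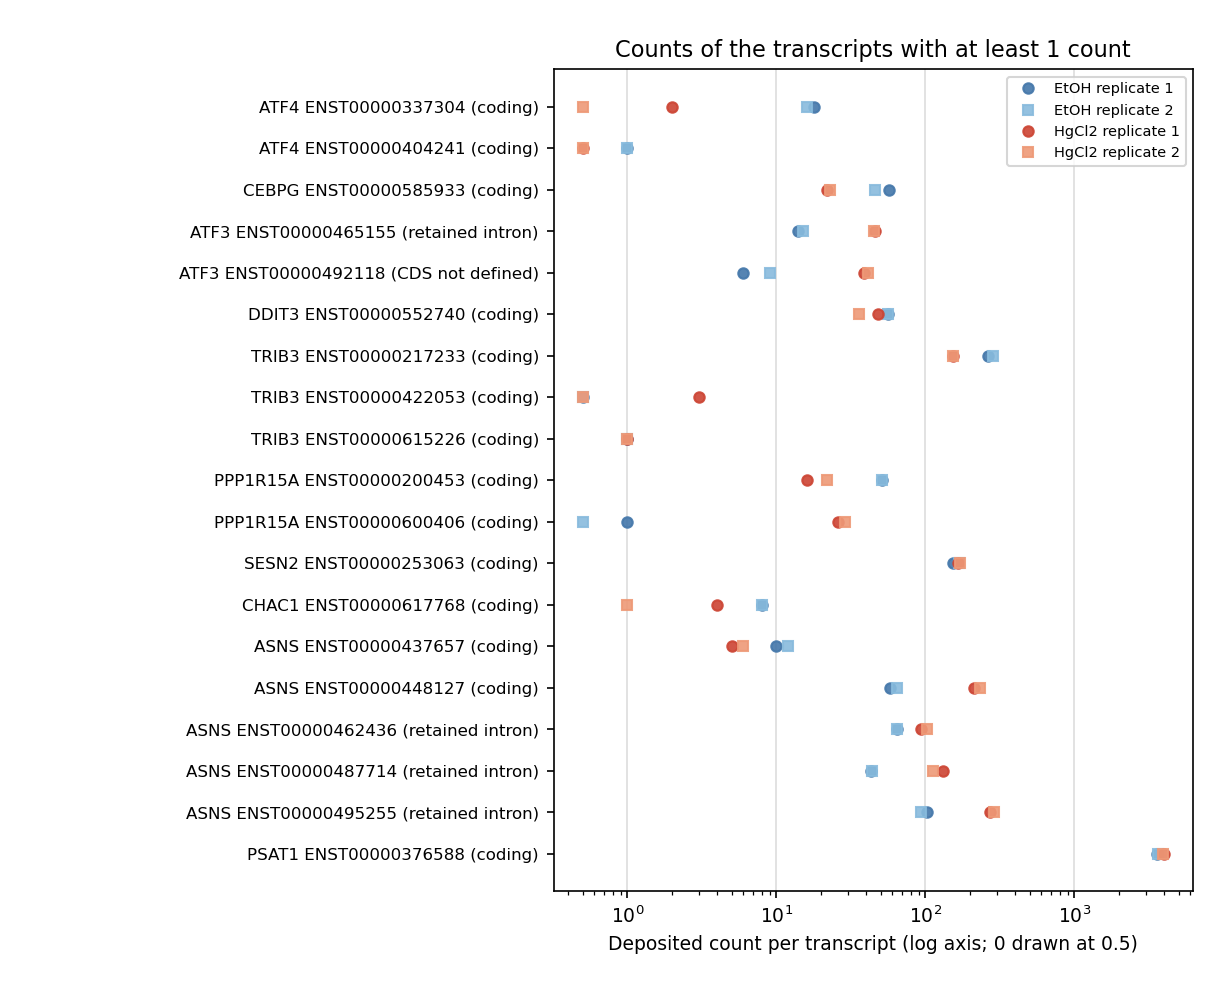
Counts (log axis, with 0 drawn at 0.5) of the 19 member transcripts with a count, 1 line per transcript, in each EtOH and each HgCl2 column. The columns of a group lie close together, and the groups stand apart for the ASNS, ATF3, ATF4 and PPP1R15A transcripts while they nearly meet for SESN2 and DDIT3.

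ATF4 itself, the transcription factor at the centre of the response, is listed with 3 transcripts on chromosome 22. Transcript ENST00000337304 (protein-coding, chr22:39520564-39522683) had 18 and 16 counts in EtOH and 2 and 0 in HgCl2. The HgCl2 mean was 15.4-fold below the EtOH mean, which is -3.94 on the log2 scale (interval -9.33 to -1.27). Its mean of 9 counts was just under the minimum of 10, and its 506 own bases lie within intron 1 of the canonical transcript ENST00000674920, which is not among the listed transcripts. Transcript ENST00000404241 had 1 count in each EtOH column and 0 in each HgCl2 column, and ENST00000396680 had 0 in all. The level of the canonical mRNA was thus not measured here. Where the counts lie on the own bases, they are those of a stretch that this mRNA does not keep.

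Of the processed copies of ATF4 in the genome, which resemble its spliced mRNA, 2 had larger counts than any ATF4 transcript. The ATF4P3 transcript ENST00000433309 on chromosome 17 had 350 and 363 counts in EtOH and 307 and 295 in HgCl2, a log2 fold change of -0.10 (-0.33 to 0.12). The ATF4P4 transcript ENST00000438498 on chromosome 11 had 98 and 100 counts in EtOH and 51 and 45 in HgCl2, a log2 fold change of -0.90 (-1.43 to -0.39). Neither reached 2-fold. Reads of near-identical copies may be placed on either, so the origin of these counts is uncertain.

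ATF3, a stress-induced bZIP repressor, is listed with 10 transcripts on chromosome 1, of which 2 had a count. The retained intron ENST00000465155 (chr1:212608670-212619247) had 14 and 15 counts in EtOH and 46 and 45 in HgCl2. That is 3.47-fold higher, a log2 fold change of 1.79 (0.89 to 2.71), and 811 of its 902 own bases form 1 run at the start of intron 3, whose first bases are printed above. Transcript ENST00000492118, with no defined coding sequence (chr1:212613436-212620777), had 6 and 9 counts in EtOH and 39 and 41 in HgCl2. It was 5.89-fold higher, a log2 fold change of 2.56 (1.35 to 3.77), with its own bases in intron 1. Both ATF3 transcripts were thus higher with HgCl2. The canonical transcript ENST00000341491 has 0 own bases and had 0 counts.

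DDIT3 encodes CHOP, the bZIP factor linked to cell death under prolonged stress, and is listed with 6 transcripts on chromosome 12. The single one with a count, ENST00000552740 (protein-coding, chr12:57516809-57520511), had 56 and 56 counts in EtOH and 48 and 36 in HgCl2. Its log2 fold change was -0.27 (-0.89 to 0.33). The interval held 0 and left out 2-fold in either direction. Its 110 own bases lie in intron 2 of the canonical transcript, and exons of MARS1 and of a further annotated gene overlap this locus, so reads of those genes may be among its counts.

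CEBPG, a partner of ATF4 in DNA binding, is listed with 3 transcripts on chromosome 19. Transcript ENST00000585933 (protein-coding, chr19:33374312-33382686) had 57 and 46 counts in EtOH and 22 and 23 in HgCl2. It was 2.07-fold lower, a log2 fold change of -1.05 (-1.81 to -0.30). The value lies at the threshold. Without EtOH replicate 1 it was -0.89, and on log2(FPKM + 1), where the added 1 shrinks differences at such low FPKM, it was -0.56. Under both it was not called. The 302 own bases of ENST00000585933 lie in intron 1 of the canonical transcript ENST00000284000. That canonical transcript has 0 own bases and had 0 counts, so the level of its mRNA was not measured.

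ASNS makes asparagine from aspartate and is a much used readout of ATF4 activity. It is listed with 17 transcripts on the minus strand of chromosome 7, of which 5 had a count. The retained intron ENST00000495255 (chr7:97863096-97869184) had 102 and 94 counts in EtOH and 272 and 288 in HgCl2, which is 3.16-fold higher, a log2 fold change of 1.66 (1.32 to 2.01). Nearly all of its 1168 own bases lie at the start of intron 4. The protein-coding ENST00000448127 (chr7:97864390-97869977), whose 164 own bases adjoin exon 2 on the side of intron 1, had 58 and 64 counts in EtOH and 212 and 234 in HgCl2, 4.04-fold higher, with a log2 fold change of 2.01 (1.60 to 2.45).

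The other 3 ASNS transcripts differed among themselves, although 2 of them share an intron. The retained intron ENST00000487714 (chr7:97852314-97854875) begins in the last part of intron 9 and had 43 and 44 counts in EtOH and 132 and 112 in HgCl2, 3.10-fold higher, with a log2 fold change of 1.63 (1.11 to 2.15). The retained intron ENST00000462436 (chr7:97854991-97858379) covers the first part of the same intron and had 64 and 64 counts in EtOH and 94 and 102 in HgCl2, 1.69-fold higher, with a log2 fold change of 0.76 (0.29 to 1.24). Both were higher with HgCl2, the former past 2-fold and the latter not, and the difference between them was not tested. Transcript ENST00000437657, with 38 own bases in intron 1, had 10 and 12 counts in EtOH and 5 and 6 in HgCl2. Its mean of 8.25 counts lay below the minimum, and its log2 fold change of -0.86 had an interval (-2.45 to 0.83) that held 0. The canonical ASNS transcript ENST00000394308 has 11 own bases and was at 0, and a further annotated gene overlaps exons of every ASNS transcript.

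**Figure D2:**
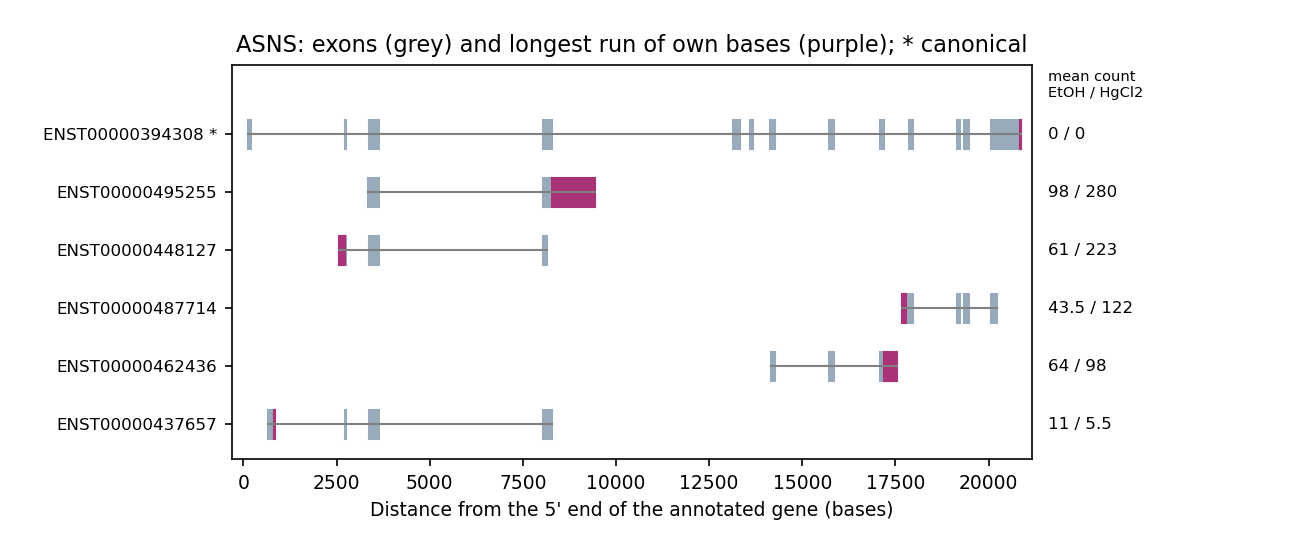
Map of the listed ASNS transcripts with a count and of the canonical transcript, with exons in grey, the longest run of own bases in purple, mean counts at the right, and distance from the 5′ end of the gene in bases. The own bases of the transcripts with a count lie in introns 1, 4 and 9 of the canonical transcript, and those 3.10- to 4.04-fold higher with HgCl2 are spread over all of these introns.

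PSAT1, the aminotransferase of serine synthesis, carried more counts than any other member. Its canonical transcript ENST00000376588 (chr9:78297125-78330093) had 3578 and 3635 counts in EtOH and 3994 and 3902 in HgCl2. The HgCl2 columns were above the EtOH columns by 1.21-fold, a log2 fold change of 0.27 (0.21 to 0.34). Counting error at this depth is small, so the interval left out 0 while the value stayed far from 2-fold. The size depends on the scaling, with 0.23 on total counts, 0.32 with the size factors of DESeq2 and 0.45 on log2(FPKM + 1). All 795 own bases of this transcript lie in its exons, which is so by definition for a canonical transcript. The counted ASNS and ATF3 transcripts are not canonical. The other listed PSAT1 transcript had 0 counts.

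CHAC1, which degrades glutathione, had a count on its canonical transcript ENST00000617768 alone (chr15:40953471-40956512), of 3 listed. The counts were 8 and 8 in EtOH and 4 and 1 in HgCl2. Its 345 own bases lie in the 3′ UTR, the mean of 5.25 was below the minimum, and the log2 fold change of -1.54 (-3.82 to 0.79) was not distinguishable from 0 at this depth.

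SESN2, a sestrin that restrains mTORC1 when amino acids are scarce, has 1 listed transcript, ENST00000253063 (chr1:28259518-28282491), and all of its 3462 bases are its own. It had 153 and 167 counts in EtOH and 165 and 170 in HgCl2. The log2 fold change was 0.21 (-0.11 to 0.54), and the EtOH and HgCl2 columns overlapped. The interval leaves out a change of 2-fold in either direction. SESN2 was thus the member measured over its full length, with an interval that reached at most 1.45-fold higher.

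TRIB3, a pseudokinase that feeds back on ATF4 and DDIT3, is listed with 4 transcripts on chromosome 20. The canonical transcript ENST00000217233 (chr20:380760-397559) had 264 and 283 counts in EtOH and 154 and 154 in HgCl2. It was 1.61-fold lower with HgCl2, a log2 fold change of -0.69 (-0.98 to -0.40) that left out 0 and did not reach 2-fold. The direction was the same under every scaling tried, from -0.48 on log2(FPKM + 1) to -0.73 on total counts. Its 1221 own bases are in exons. Transcript ENST00000422053 had 3 counts in 1 HgCl2 column and 0 elsewhere, and ENST00000615226 had 1 count in every column.

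PPP1R15A encodes GADD34, the feedback regulator that directs a phosphatase to eIF2, and its 2 listed transcripts on chromosome 19 moved apart. The canonical ENST00000200453 (chr19:48872421-48876058) had 51 and 51 counts in EtOH and 16 and 22 in HgCl2, 2.43-fold lower, with a log2 fold change of -1.28 (-2.12 to -0.50). On log2(FPKM + 1) it was -0.80 and not called. The protein-coding ENST00000600406 (chr19:48872212-48876036), which keeps intron 2, had 1 and 0 counts in EtOH and 26 and 29 in HgCl2, 60.7-fold higher, with an interval of 5.11 to 1260. This size hangs on a single EtOH count, and its log2 value of 5.93 became 3.34 without EtOH replicate 1 and 4.93 without EtOH replicate 2, higher and called in each case. ENST00000200453 has 22 own bases at the 3′ end of the gene, while 715 of the 924 own bases of ENST00000600406 are the whole of intron 2. With both summed, the gene had 52, 51, 42 and 51 counts, a log2 fold change of -0.004 (-0.60 to 0.60), so the opposite values cancelled in the sum. An EtOH mean of at most 1 count was found for 242 of the 11891 transcripts (2.04%).

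Summed over all transcripts of a gene, ASNS had 277 and 278 counts in EtOH and 715 and 742 in HgCl2, a log2 fold change of 1.54 (1.33 to 1.74), and ATF3 had 20 and 24 against 85 and 86, which is 2.10 (1.42 to 2.86) on the same scale. Of the 10 genes, ASNS and ATF3 were past 2-fold higher and CEBPG past 2-fold lower. ATF4 and CHAC1 were under the minimum, and the other 5 stayed between the thresholds. Since bases shared between transcripts may carry few counts, these sums are not the level of the gene.

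**Figure D3:**
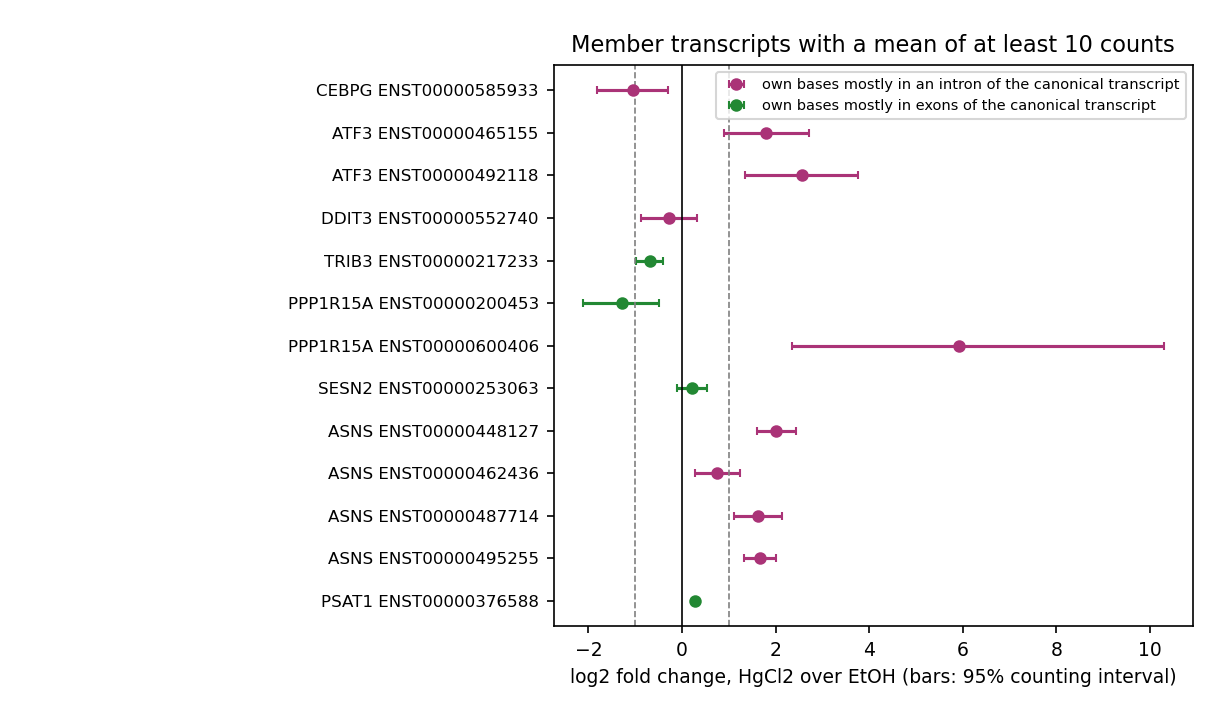
Log2 fold change, HgCl2 over EtOH, of the 13 member transcripts that averaged 10 counts or more, with exact 95% counting intervals as bars and dashed lines at 2-fold, coloured by whether the own bases lie in introns or exons of the canonical transcript. All 6 transcripts called higher have intron bases, and the 4 with exon bases, which are the canonical ones, run from -1.28 to 0.27.

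Calls differed with where the own bases lie, a division made after the values were seen. Of the 13 transcripts, 9 have most of their own bases in introns of the canonical transcript, with 6 called higher and 1 lower, and 4 have them in its exons, with 0 higher and 1 lower. Across the whole table, 31.0% of the 4857 transcripts of the intron kind were called higher and 17.8% lower, against 12.2% and 17.4% of the 5958 of the exon kind. Transcripts annotated as retained introns, 2389 in all, were called higher in 32.1% and lower in 16.5%, and of the 4 among the members 3 were higher and 0 lower. A larger share of higher calls among transcripts of the intron kind was thus found across the whole table. Its cause was not tested.

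**Figure D4:**
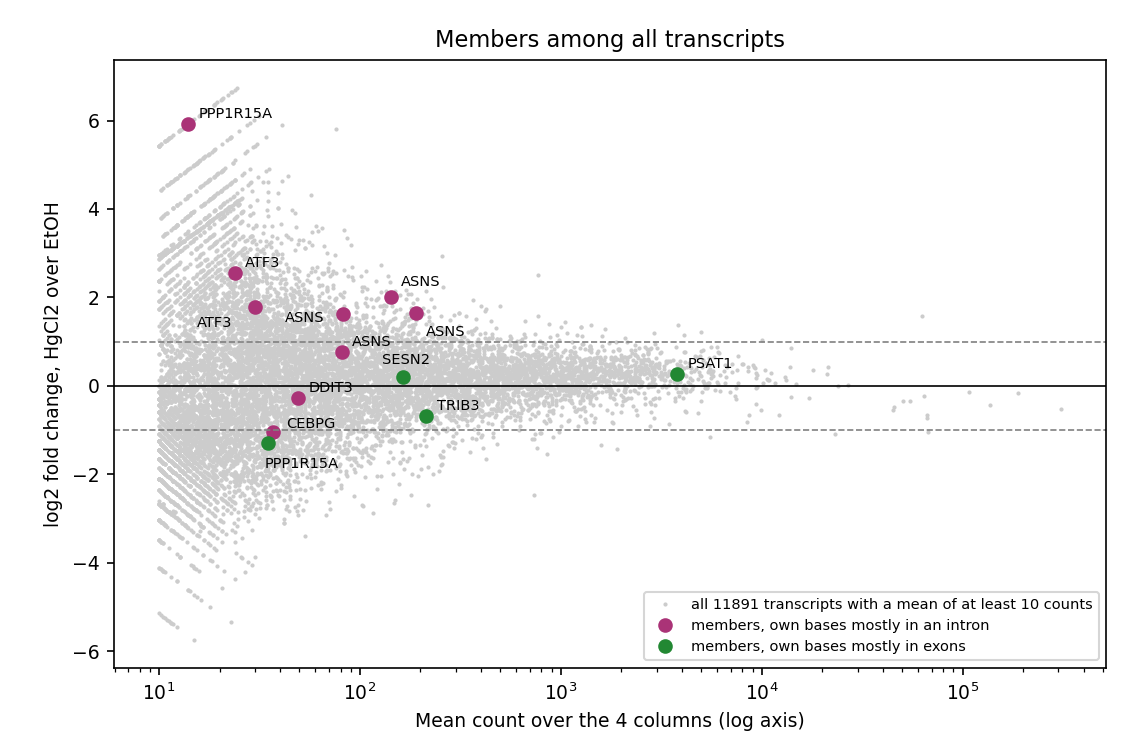
Log2 fold change against mean count (log axis) for all 11891 transcripts that averaged 10 counts or more, in grey, and for the 13 member transcripts, in purple for own bases in introns and green for exons, with dashed lines at 2-fold. The members lie within the cloud of all transcripts, which narrows from low to high counts.

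Depth bears on these calls as well. Among all transcripts that averaged 10 to under 30 counts 28.7% were called higher and 29.7% lower, at 30 to under 100 counts 24.9% and 17.0%, and at 100 counts or more 7.64% and 3.54%. The members called higher were 2 of 2 in the lowest range, 2 of 6 in the middle one and 2 of 5 in the highest, and those called lower were 0, 2 and 0. The 2 in the lowest range, of PPP1R15A and ATF3, had EtOH means of 0.5 and 7.5 and reached the minimum through their HgCl2 counts. For PPP1R15A the call was thus all but set by the minimum. The 2 in the highest range were the ASNS transcripts ENST00000495255 and ENST00000448127. The other 3 of that range, the transcripts of PSAT1, SESN2 and TRIB3, all stayed within 2-fold.

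ATF4 and its CEBP partners bind a composite element that joins parts of a CEBP and an ATF site. The letters TGATGNAA were searched on both strands in RefSeq promoters (GRCh38.p14, from 250 bases before to 50 after a start). They were found in 4 of 17 member promoters, of 4 genes among the 10, and in 3.62% of all 35116 promoters. Among the other pathway genes 19 of 100 promoters held them, or 19.0% beside 23.5% of the member promoters. Each member match is shown 5′ to 3′ in the direction of its gene, which for ASNS is the minus strand, with the match in capitals.
ATF3, chr1:212565205-212565234: aaaggtcaggaTGATGGAAggctgtcatat
ASNS, chr7:97872458-97872487: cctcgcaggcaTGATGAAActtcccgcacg
CHAC1, chr15:40953251-40953280: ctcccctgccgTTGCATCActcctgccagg
CEBPG, chr19:33374060-33374089: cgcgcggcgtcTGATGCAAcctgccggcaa
A match describes letters and not a bound site. The genes with a match differed in direction: ASNS and ATF3 transcripts were higher with HgCl2, the CEBPG transcript was lower and CHAC1 was too thinly counted to tell. The counted ATF3 transcripts are annotated to begin at chr1:212608670 and chr1:212613436, far downstream of the ATF3 match. The ASNS transcripts called higher also begin downstream of the ASNS match. For these genes the match and the counts thus belong to different annotated starts.

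The wider pathway was described with 87 other genes in 7 groups by role, 855 listed transcripts of which 241 had a count and 95 reached a mean of 10 counts. Of the 95, 22 were higher (23.2%), 6 lower (6.32%) and 67 neither, beside 20.7% and 17.6% of all transcripts, and their median log2 fold change was 0.39. The 39 retained introns among them held 15 of the higher calls. As with the members, a transcript at low counts in one group enters the 95 through the other group alone. With most own bases in an intron, 21 of 53 were higher and 5 lower, and with most in exons 1 of 38 was higher and 1 lower. Here too, the own bases of a listed canonical transcript can lie only in its exons. The exon-based transcript called higher was JUN ENST00000371222, an AP-1 factor of a gene without introns, with 486 and 494 counts in EtOH and 979 and 1010 in HgCl2, 2.24-fold higher.

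Upstream of ATF4, the eIF2 kinases and the proteins that relay stress to them had 8 transcripts with enough counts. Of these, 0 were called in either direction, beside 20.7% higher and 17.6% lower among all transcripts. Their log2 fold changes ran from -0.59 to 0.57. The kinase EIF2AK4 had no transcript with enough counts, and its canonical ENST00000263791 had 11 and 10 in EtOH and 2 and 2 in HgCl2. The kinase EIF2AK3 reached the minimum with ENST00000668866 alone, whose 1208 own bases lie outside the canonical transcript. These 2 kinases were thus not measured. EIF2AK2, the kinase PKR that senses double-stranded RNA, had the most counts of this group, with 1842 and 1836 in EtOH and 1955 and 1998 in HgCl2, 1.19-fold higher (1.11 to 1.27). The next group held subunits of eIF2 and eIF2B, phosphatase genes, and the separate factors EIF2A, EIF2D, DENR and MCTS1. It had 20 transcripts, with 4 higher and 2 lower, beside 20.7% higher and 17.6% lower among all transcripts. EIF2S2, the beta subunit of eIF2, stood at 15370 and 15132 counts in EtOH and 14388 and 14258 in HgCl2, a scaled ratio of 1.04. The 2 calls at 30 counts or more in this group were the EIF2A retained intron ENST00000474505, 2.21-fold higher, and PPP1CC ENST00000550991, a transcript of a catalytic phosphatase subunit, 2.37-fold higher.

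Among partner and related bZIP factors, a list that also holds DDIT4, which is not a bZIP factor, 10 transcripts were measured. Of these, 1 was higher, which was JUN, and 1 lower, beside 20.7% higher and 17.6% lower among all transcripts. ATF6, the membrane-bound stress sensor of the endoplasmic reticulum, stood at 1858 and 1908 counts in EtOH and 1820 and 1770 in HgCl2. In serine, one-carbon and proline synthesis, the pathway of PSAT1, 1 of 5 transcripts was higher and 0 lower, beside the same shares of all transcripts. MTHFD2, the mitochondrial folate enzyme, had 735 and 745 counts in EtOH and 636 and 655 in HgCl2, a scaled ratio of 0.963. Neither MTHFD2 nor PSAT1 reached 2-fold.

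The amino acid transporters had 14 transcripts, with 3 higher, 1 lower and 10 neither, beside 20.7% higher and 17.6% lower among all transcripts. The 3 were all of SLC38A2, a sodium-coupled carrier of small neutral amino acids. Its transcript with the most counts, ENST00000256689, had 3275 and 3259 in EtOH and 3658 and 3682 in HgCl2, 1.24-fold higher and not called. The retained intron ENST00000552703 had 51 and 56 counts in EtOH and 219 and 210 in HgCl2, 4.43-fold higher. The retained intron ENST00000546520 was 3.13-fold and ENST00000548870 was 3.05-fold higher, and these 3 have their own bases in introns. Other retained introns of the gene did not pass 2-fold, with ENST00000548785 at 1.31-fold higher and ENST00000548236 at 1.59-fold lower, neither called. The transcript called lower was the SLC3A2 retained intron ENST00000542922, of the heavy chain of several carriers, with 78 and 73 counts in EtOH and 11 and 9 in HgCl2, 6.84-fold lower. SLC38A1, another carrier of this family, had the most counts, 20209 and 20296 in EtOH and 22282 and 22170 in HgCl2, 1.21-fold higher.

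Aminoacyl-tRNA synthetases, which charge tRNAs with amino acids, and XPOT, which exports tRNAs from the nucleus, held 11 of the 22 higher calls. Of 26 transcripts in this group 11 were higher and 0 lower, beside 20.7% higher and 17.6% lower among all transcripts. Of its 17 retained introns 9 were higher, beside 32.1% of all retained introns. The canonical synthetase transcripts with enough counts went both ways, and none was called. AARS1 had 1060 and 1113 counts in EtOH and 569 and 567 in HgCl2, 1.73-fold lower, and LARS1 was 1.25-fold lower. The AARS1 transcript has 9 own bases and that of LARS1 has 0, so the stretch their counts came from is uncertain. NARS1 was 1.57-fold higher, and EPRS1 had a scaled ratio of 0.99. XPOT ENST00000332707, with own bases in exons, had 10577 and 10704 counts in EtOH and 17500 and 17206 in HgCl2, 1.80-fold higher (1.76 to 1.85). XPOT ENST00000400935 had 4 and 3 counts in EtOH and 79 and 78 in HgCl2, 24.8-fold higher (8.19 to 82.0), and the XPOT retained intron ENST00000542958 was 3.44-fold higher. These 3 XPOT transcripts were all higher with HgCl2, and the first by less than the other two. The YARS1 retained intron ENST00000490826 was 8.62-fold higher, the MARS1 retained introns ENST00000551805 and ENST00000548630 went from 32 and 19 to 82 and 84 counts and from 23 and 17 to 49 and 38, and SARS1 ENST00000468588 was 2.25-fold higher. Secreted and other targets had 12 transcripts, with 2 higher and 2 lower, beside 20.7% and 17.6% of all transcripts. STC2, a secreted glycoprotein, stood at 1350 and 1333 counts in EtOH and 1077 and 1139 in HgCl2, 1.10-fold lower.

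**Figure D5:**
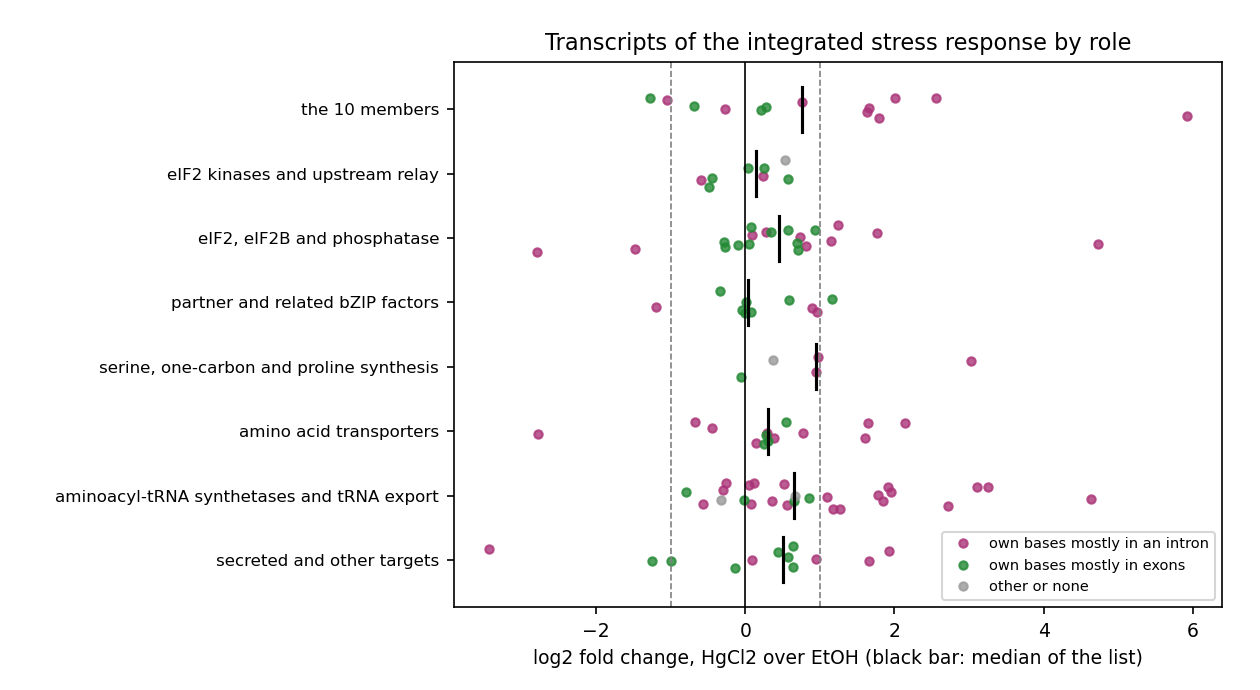
Log2 fold change, HgCl2 over EtOH, of each transcript that averaged 10 counts or more, grouped by role, with members at the top, own bases in introns, exons or elsewhere by colour, black bars at the median of each group and dashed lines at 2-fold. The points of the kinase and relay group, which hold no EIF2AK4 transcript, stay between the lines. The higher points of the synthetase group are mostly of the intron kind.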

How the data were processed

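The authors prepared TruSeq libraries from poly-A RNA, trimmed the reads with Trim Galore, aligned them to GRCh38 with STAR 2.5.4b and counted them per Ensembl transcript with Rsubread, whose options are not given in the sources used here. The deposited counts are not normalized, and the authors derived the deposited FPKM from them with DESeq2 1.26.0 (median ratios). All table columns were assigned to samples by name.

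Gene symbols, transcript types, exons and own bases (covered by no other listed transcript on either strand) came from GENCODE 44, which is newer than the authors' annotation and holds 223558 of the 227368 identifiers (99.8% of the counts). TMM factors (edgeR 4.0.16, R 4.3.3) were computed over the 17547 transcripts for which either group averaged more than 1 FPKM. Fold changes are ratios of scaled mean counts with 95% Clopper-Pearson intervals from rounded means (scipy 1.17.1). Since columns of a group differed by less than sampling noise, edgeR and DESeq2 1.42.0 tests serve as alternatives only. The paper calls the replicates biologically independent, which the columns do not show.

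The procedure was tested on simulated data of 11891 transcripts, 200 of them changed by known folds. It called 191 of these and 13 unchanged ones, and 99.3% of intervals held the true value. The simulated columns were independent counting draws, whereas the real columns of a group differed by less than such draws. These shares therefore check the calculation and are not error rates for the real data.

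Members, role lists and markers were chosen with earlier results of these data known. Named transcripts of the pathway are the most counted of each role and those called with a mean of at least 30 counts. Further SLC38A2 transcripts and the canonical synthetase transcripts are given beside them. The classes of intron and exon own bases were chosen after the data were seen, as were the processed copies of members. Reads, and the study's experiments other than RNA-seq, were not analysed here.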

Additional observations from a re-analysis of the deposited data

How the results depend on the processing

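The 6 higher member transcripts were 6 under every other scaling, test and left-out column. They were 4 of 11 where at least 10 counts in every column or a mean of at least 30 counts was asked. Of all transcripts 14.8% and 15.5% were called higher under these 2 settings. The 2 lower ones were 0 on the scale of the deposited FPKM (ratio of FPKM + 1) and 1 to 2 with a column left out, the 1 without EtOH replicate 1; they were 3, with ATF4 ENST00000337304 added, under the FPKM filter without a count minimum and with no filter. Of 104 recomputed single values 102 stayed within their interval and 0 reversed; log2(FPKM + 1) gave 2.14 for PPP1R15A ENST00000600406 and 0.45 for PSAT1 ENST00000376588. Pathway transcripts called higher, 22, were 22 to 26 with a column left out. With at least 10 counts in every column they were 11 of 77 (14.3%), beside 14.8% of all transcripts. With a mean of at least 30 they were 12 of 66 (18.2%), beside 15.5% of all. Those called lower, 6, were 1, 1 and 5 to 6 under the same settings, 11 with the FPKM filter and no count minimum, and 14 with no filter. Gene sums called lower, 1, were 2 with the most counted transcript alone and 0 to 1 with a column left out, 0 without EtOH replicate 1. With the replicate block in edgeR the members gave 6 higher and 2 lower calls and the pathway 22 and 6, as without it; the numbers are only shared labels. Over all transcripts the FPKM scale gave 2335 higher and 1006 lower calls against 2465 and 2098. It moves HgCl2 against EtOH by 0.32 on the log2 scale from raw counts, TMM by 0.14. Where an alternative moved a value, the cause was not tested. Low counts limit ATF4, CHAC1 and ATF3, and few own bases limit the canonical ASNS, ATF3, DDIT3, CEBPG and PPP1R15A transcripts. With 1 sample a group, variation between cultures is unknown.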

Other observations

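A processed copy of PSAT1 was called lower, in a range of counts where such calls were common. It reached the minimum of 10 through its EtOH counts, and 29.7% of all transcripts that averaged 10 to under 30 counts were called lower. PSAT1P3 ENST00000439132 on chromosome 1 had 22 and 21 counts in EtOH and 2 and 5 in HgCl2, a log2 fold change of -2.48 (-4.31 to -0.76), and was the 1 pseudogene transcript of the members called lower, of 16 listed and 6 with a count. The spliced PSAT1 transcript had 3578 to 3635 counts in EtOH, and reads of near-identical copies may be placed on either, so the origin of the PSAT1P3 counts is uncertain.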
